A study of Homo sapiens with 8 samples.

Results

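The genes described here are the human genes that encode the proteins of the cytosolic ribosome. They were chosen by name: protein-coding genes called RPLP0, RPLP1, RPLP2, RPSA, or RPL or RPS followed by digits and at most 1 of the letters A, X and L. The rule took 81 of 19754 protein-coding genes, 49 of the large subunit and 32 of the small subunit. A gene counts as marked if any base of a merged peak lies no more than 1 kb from its start. The peak lists come from KGN cells, an established line from a human ovarian granulosa tumour, left untreated (control) or given 1 mM butyrate for 6 h. Butyrate, a small fatty acid made by gut bacteria, blocks the enzymes that remove acetyl groups from histones. Chromatin immunoprecipitation and sequencing (ChIP-seq) was used to locate 2 marks, acetylated lysine 9 of histone H3 (H3K9ac) and acetylated lysine 16 of histone H4 (H4K16ac), with 1 library per antibody and condition. There are therefore no replicates, and every difference below is a difference between 2 libraries with no replicate check.

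The ribosome is built from RNA and a large set of proteins that are needed in near-equal amounts. Their genes are spread over the genome, are active in nearly every cell, and are short, with strong promoters. Most of their messages begin with a C and a run of pyrimidines, the TOP motif, which links their translation to growth signals. Histone acetylation at H3 lysine 9 marks the nucleosomes that flank the starts of active genes. Acetylation at H4 lysine 16 is laid down mainly by the acetyltransferase KAT8 and loosens the packing of nucleosomes.

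The promoters below show how the starts of these genes are built and which members the results return to. RefSeq (GRCh38.p14) promoter entries matched 64 of the 81 genes. Each stretch holds the 100 bases before the RefSeq start and the first 20 bases of the transcript, 5′ to 3′ on the gene's strand. Capitals mark the ETS core CCGGAAG, the GC box GGGCGG, the NFY box CCAAT and the TATA box TATAAA on either strand, and the TOP motif CTTTNC near the start on the gene's own strand. Among the control H3K9ac peaks nearest the starts, RPS14 (chr5:150449720-150449839, minus strand) had the narrowest, with a wider control peak on its gene side. RPLP2 (chr11:809867-809986, plus strand) had the widest. RPS4X (chrX:72277229-72277348, minus strand) had the largest loss of width with butyrate. RPL39 (chrX:119791611-119791730, minus strand) had the highest control H3K9ac −log10 q. RPS3A (chr4:151099528-151099647, plus strand) had the highest control H4K16ac −log10 q. RPL3 (chr22:39319604-39319723, minus strand) is a TATA-containing member, and RPL10L (chr14:46651762-46651881, minus strand) had no peak near it in any list.
RPS14: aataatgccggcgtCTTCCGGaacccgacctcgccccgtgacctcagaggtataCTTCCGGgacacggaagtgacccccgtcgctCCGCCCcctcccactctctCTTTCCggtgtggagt
RPLP2: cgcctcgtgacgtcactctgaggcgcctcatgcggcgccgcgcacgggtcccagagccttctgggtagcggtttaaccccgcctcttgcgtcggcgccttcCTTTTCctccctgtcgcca
RPS4X: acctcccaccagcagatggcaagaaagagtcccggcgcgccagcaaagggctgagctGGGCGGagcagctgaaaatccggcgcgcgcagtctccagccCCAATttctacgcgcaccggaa
RPL39: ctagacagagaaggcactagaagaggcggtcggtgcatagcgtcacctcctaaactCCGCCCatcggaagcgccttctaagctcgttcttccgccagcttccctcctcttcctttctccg
RPS3A: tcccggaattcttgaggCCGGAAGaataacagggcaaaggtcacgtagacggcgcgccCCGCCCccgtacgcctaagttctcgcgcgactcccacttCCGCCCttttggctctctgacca
RPL3: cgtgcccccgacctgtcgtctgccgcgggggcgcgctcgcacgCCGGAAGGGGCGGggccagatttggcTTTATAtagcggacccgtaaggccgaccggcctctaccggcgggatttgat
RPL10L: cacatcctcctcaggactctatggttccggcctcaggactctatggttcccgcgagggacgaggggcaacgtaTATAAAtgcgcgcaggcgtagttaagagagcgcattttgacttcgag

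The start itself set these promoters apart in sequence. The RefSeq start base was C in 48 of 64 members (75%), against 11.2% of 15812 promoters. The motif CTTTNC lay within 10 bases of the start in 27 of 64 members (42.2%), against 3.38% of all promoters and 4.35% of 69 promoters of mitochondrial ribosomal protein genes. Other runs of pyrimidines that begin with C, as at the printed RPL39 start, were not counted. In the 250 bases before to 50 after the start and on either strand, the ETS core was held by 32.8% of members, 14.2% of promoters, 21.4% of the 9209 promoters of genes with control H3K9ac and 42% of the mitochondrial ribosomal list. The YY1 core AAGATGGC was held by 9.38%, 3.96%, 6.04% and 30.4% of the same 4 sets. The GC box was held by 57.8% of members and 59.3% of promoters, but by 74% of those with control H3K9ac. The NFY box (34.4% and 36.1%) and the TATA box (9.38% and 9.64%) had like shares in members and all promoters, and the E box CACGTG was in 3.12% of members and 8.80% of promoters. A match says only that these letters occur in the window.

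H3K9ac peaks lay at nearly every ribosomal protein gene, with and without butyrate. In control, 79 of 81 members (97.5%, exact 95% interval 91.4 to 99.7) were marked, against 55.1% of all protein-coding genes. With butyrate the same 79 members were marked, against 64.1% of genes. Only 2 members were unmarked in control and could have gained a peak, and neither did. Over all genes 9.15% gained one, or 20.4% of the 8869 unmarked in control, and with 2 members nothing is read from this. No member lost one, where 0.167% of all genes did. The intervals cover the counting of genes only.

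The 2 members with no H3K9ac peak at the start in either condition are copies with restricted expression. RPL10L, an intronless relative of the X-linked RPL10 used in the testis, had no H3K9ac peak within 1397355 bp of its start in control or 1397445 bp with butyrate. RPL3L, the form of RPL3 made in striated muscle, had its nearest control H3K9ac peak 4872 bp from the start. With butyrate that distance was 3746 bp, and 4 butyrate peaks covered 12.7% of the RPL3L gene, where control had none. The other L-named copies were marked in both conditions. The control and butyrate peaks were 873 and 1283 bp wide at RPL39L, a relative of RPL39, and 2564 and 1459 bp wide at RPS27L, a relative of RPS27. The farthest of the 79 control peaks lay 223 bp from its RefSeq start (RPL38), so no marked member sat near the 1 kb limit for H3K9ac.

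The control H3K9ac peak of a typical member began close to the start and ran into the gene. Positions are given in bp from the RefSeq start, with negative values upstream. The upstream edge had a median of −1.0 bp over the 79 marked members and the downstream edge a median of 1817 bp, against −34.0 and 973 bp over all marked genes. The middle of the peak lay at a median of 830.5 bp (lowest −986.5, highest 1696), against 394 bp in all marked genes. It was downstream of the start in 72 of 79 members (91.1%), against 82.1% of marked genes. The strongest summit had a median position of 357 bp, against 199 bp. The start itself was under the peak in 38 of 79 members (48.1%), against 54.5% of marked genes. In the other 41 members the peak stopped short of the start by a median of 42.0 bp (2.0 to 223 bp).

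The plot of the share of genes covered at each distance shows the same layout. In control, the position 100 bp upstream of the start was under a peak in 29 of 81 members (35.8%), the start in 46.9%, and the position 500 bp downstream in 97.5%. Upstream of that dip the share rose again, to 56.8% of members at 500 bp upstream. Over all genes with a strand, the shares were 27.5% at 500 bp upstream, 21.9% at 100 bp upstream, 31.5% at the start and 46.0% at 500 bp downstream. At 2000 bp downstream, control peaks covered 38 of 81 members (46.9%) and butyrate peaks 58 (71.6%), against 8.84% and 21.0% of all genes. At 3000 bp the members' shares were 22.2% and 50.6%, against 3.28% and 12.3% of all genes.

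**Figure D1:**
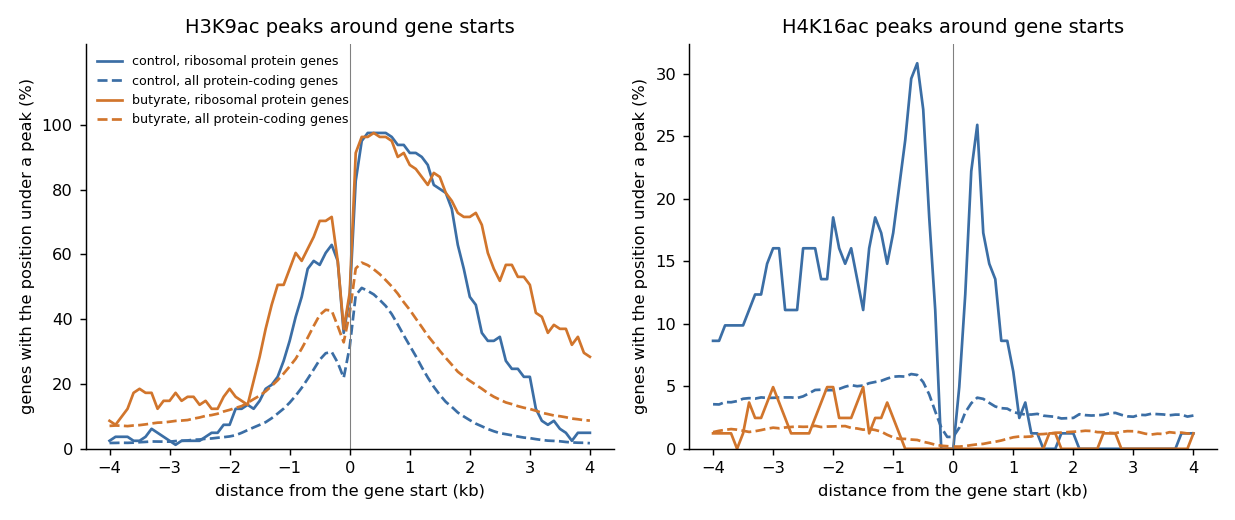
Share of genes (%) with each position under a peak, by distance from the gene start in kb, for H3K9ac (left) and H4K16ac (right). Solid lines are the 81 ribosomal protein genes, dashed lines all protein-coding genes, blue control and orange butyrate. H3K9ac covers 97.5% of the members at 500 bp downstream in control, and control H4K16ac covers 0 members at the start.

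The side of the start on which the nearest control H3K9ac peak lay differed among members, although control H3K9ac peaks covered the position 500 bp downstream in 79 of 81 members. The 3 with the middle of the control peak farthest downstream were RPL5 (1696 bp), which binds 5S RNA, RPL37 (1669 bp) and RPS18 (1609 bp), a protein of the small subunit's head. Those farthest upstream included RPL7 (−986.5 bp) and RPL41 (−475.5 bp), which encodes the shortest ribosomal protein. Both had further peaks on the gene itself, with 3 control peaks within 2 kb of each start, which covered 41.7% of RPL7 and 92.1% of RPL41. The control peak of RPL7, chr8:73294364-73296541, also held the start of the neighbouring gene RDH10. In 11 of 79 members the control peak held the start of another gene, which was not counted over all genes. Besides RPL7 these were RPL12 (LRSAM1), RPL27A (TRIM66), RPL4 (ZWILCH), RPL7A (MED22), RPS25 (TRAPPC4), RPS27A (CLHC1), RPS28 (NDUFA7) and RPS29 (LRR1), and the readthrough genes that begin at RPL17 and RPS10. The peaks of these 11 had a median control width of 2709 bp, against 2032 bp in the other 68, and which gene the signal belongs to cannot be told apart. RPS29 has a further limit. Its RefSeq start lies 12334 bp from the authors' start, and the peak at the authors' start was 1109 bp wide in control and 1591 bp with butyrate, against 1749 and 2220 bp at the RefSeq start.

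**Figure D2:**
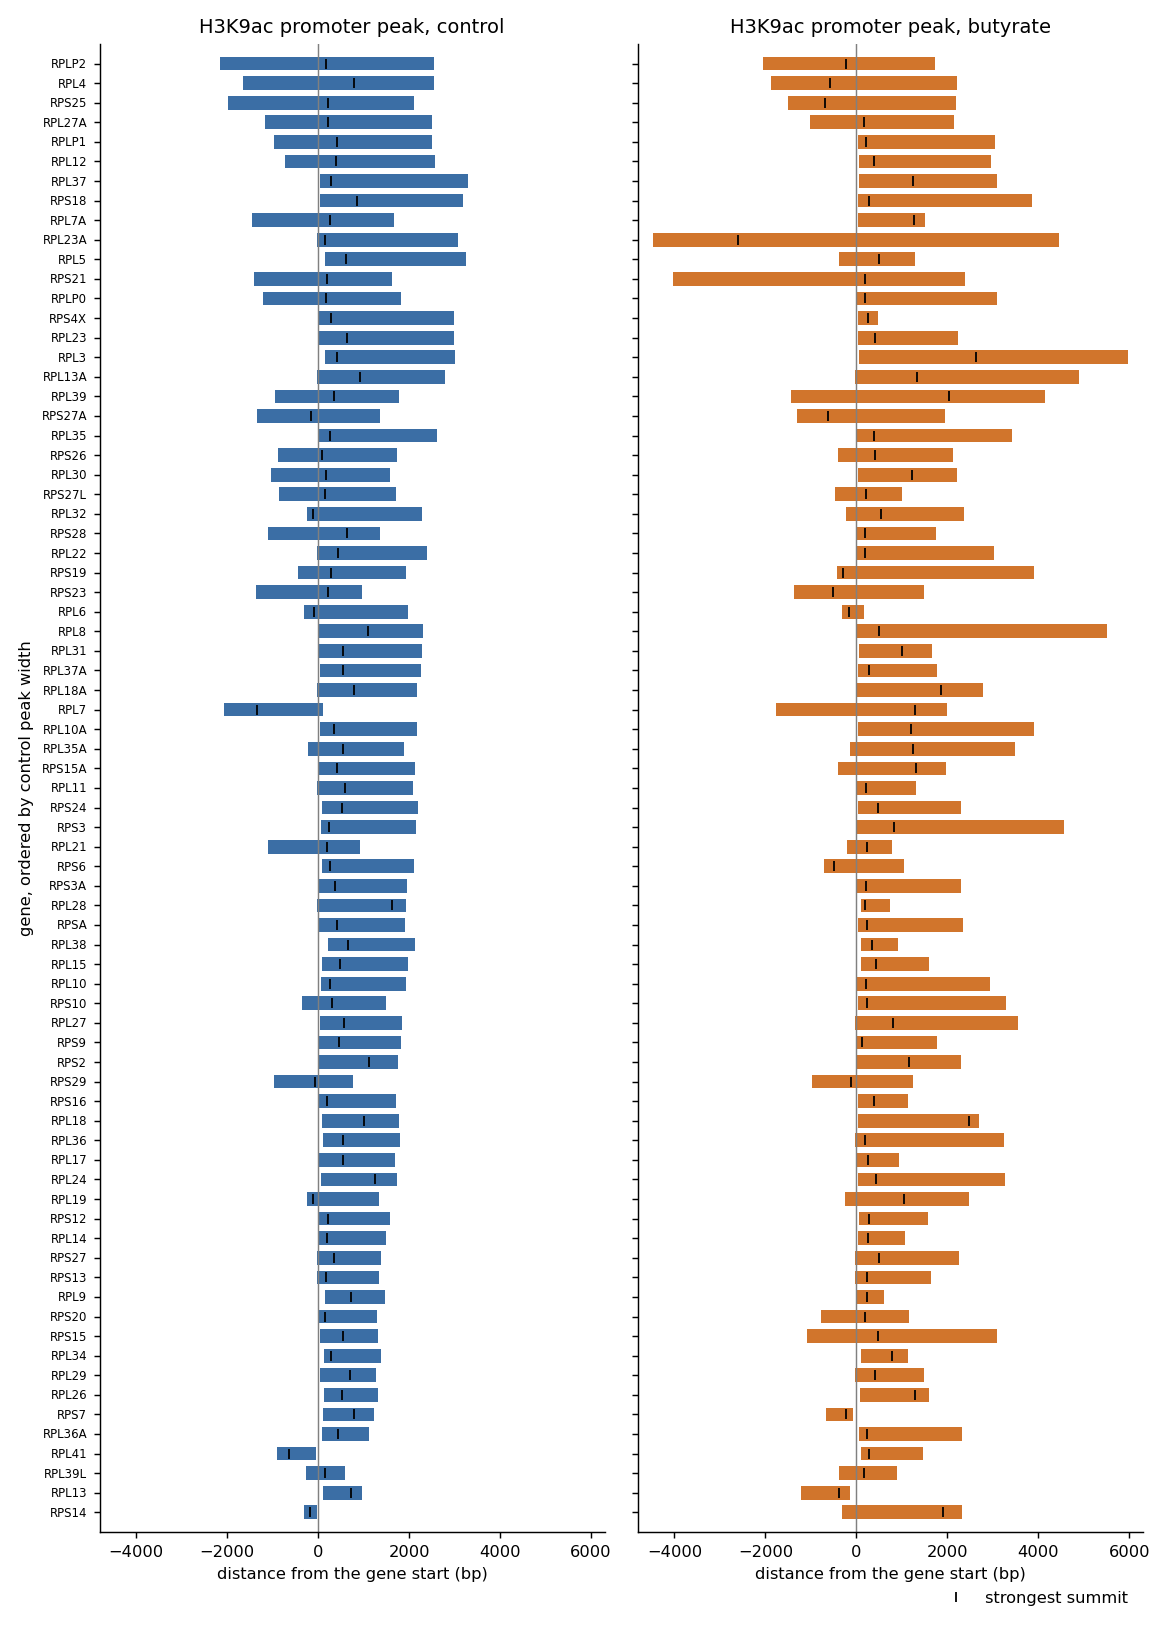
Extent of the H3K9ac peak nearest the start in 75 of the 79 marked ribosomal protein genes, in bp from the gene start, for control (left) and butyrate (right). Bars run from the upstream to the downstream edge, ticks mark the strongest summit, and genes are ordered by control width from RPS14 (284 bp) to RPLP2 (4714 bp).

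The members' H3K9ac peaks were broad in control and on the whole somewhat broader with butyrate, mostly by reaching farther into the gene. The control peak had a median width of 2091 bp (284 to 4714), against 1176 bp over all marked genes. With butyrate the median was 2296 bp (444 to 8917), against 1460 bp. The ratio of butyrate to control width had a median of 1.20 over the 79 members (0.149 to 9.30), against 1.34 over 10852 genes marked in both conditions. The peak was wider by any amount in 47 of 79 members (59.5%), against 73.1% of genes. It was at least 1.5 times wider in 25 of 79 (31.6%), against 41.8%, and at least 1.5 times narrower in 14 of 79 (17.7%), against 9.55%. The genes compared were not matched for control width. A wider control peak needs more added bases to reach the same ratio, and the members began wider.

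The downstream edge moved by more than 100 bp in most members, and the upstream edge in fewer. The upstream edge lay within 100 bp of its control place in 47 of 79 members (59.5%), against 46.1% of 10402 genes whose edges could be compared. The downstream edge did so in 4 of 79 (5.06%), against 19.5%. The downstream edge was farther from the start with butyrate in 50 of 79 members (63.3%), against 69.7% of genes, with a median shift of 373 bp (−2512 to 3826), against 227 bp over all genes. The upstream edge shifted outward by a median of 6.0 bp, against 44.0 bp. The share of the gene under H3K9ac peaks had a median of 44.8% in control and 59.3% with butyrate over the 81 members. These genes are short, with a median length of 5015 bp. Only RPS21 was covered from end to end in control. With butyrate 8 of 81 were covered whole, among them RPL13A, RPL23A, RPL36, RPS15, RPS21 and RPS27. The coverage of whole genes was not computed over all genes.

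The 5 members with the largest ratio included RPS14, RPS15, RPL23A and RPL8. RPS14, whose loss is linked to a form of myelodysplastic anaemia, had a control peak of 284 bp (chr5:150449764-150450047) and a butyrate peak of 2641 bp (chr5:150447415-150450055), a ratio of 9.30. Its nearest control peak was a small one just upstream of the start, with a second, wider control peak on the gene side. With the widest peak within 1 kb in place of the nearest, the ratio was 1.60. Counting all bases under peaks within 2 kb of the start, RPS14 had 1939 bp in control and 2317 bp with butyrate. RPS15 went from 1290 to 4170 bp (3.23) and kept 1.69 times the control coverage within 2 kb. RPL23A, which binds near the exit of the protein tunnel, went from 3099 to 8917 bp (2.88), from chr17:28719966-28723064 to chr17:28715521-28724437, the widest butyrate peak of any member. The butyrate peak of RPL23A also held the start of the neighbouring gene RAB34. Its ratio was 1.15 with peaks joined within 500 bp and 1.22 over bases within 2 kb. RPL8 went from 2287 to 5499 bp (2.40), with 3803 and 3780 bp covered of the 4001 bp within 2 kb.

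The 5 members with the smallest ratio were RPS4X, RPL6, RPL28, RPL38 and RPL9. RPS4X, the X-linked gene of a pair with a copy on Y, had 1 control peak of 2978 bp (chrX:72274254-72277231). With butyrate it had 3 peaks within 2 kb, the nearest 444 bp wide (chrX:72276766-72277209), a ratio of 0.149. RPL6 went from 2289 to 488 bp (0.213), with 1 control and 4 butyrate peaks within 2 kb. RPL28 (1943 to 631 bp), RPL38 (1910 to 821 bp) and RPL9 (1327 to 592 bp) were likewise broken into more peaks with butyrate, 3, 3 and 5 within 2 kb against 2, 1 and 2. When peaks within 500 bp of each other were joined, the ratio was 1.05 at RPS4X, 0.451 at RPL6, 1.33 at RPL28, 0.931 at RPL38 and 1.20 at RPL9. After joining, 3 of 79 members were at least 1.5 times narrower and 33 of 79 (41.8%) at least 1.5 times wider, against 4.51% and 47.0% of genes. RPL6 alone of these 5 members was still at least 1.5 times narrower. In RPL13, RPL41 and RPS7 the nearest control peak and the nearest butyrate peak shared no base, because they lay on opposite sides of the start.

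**Figure D3:**
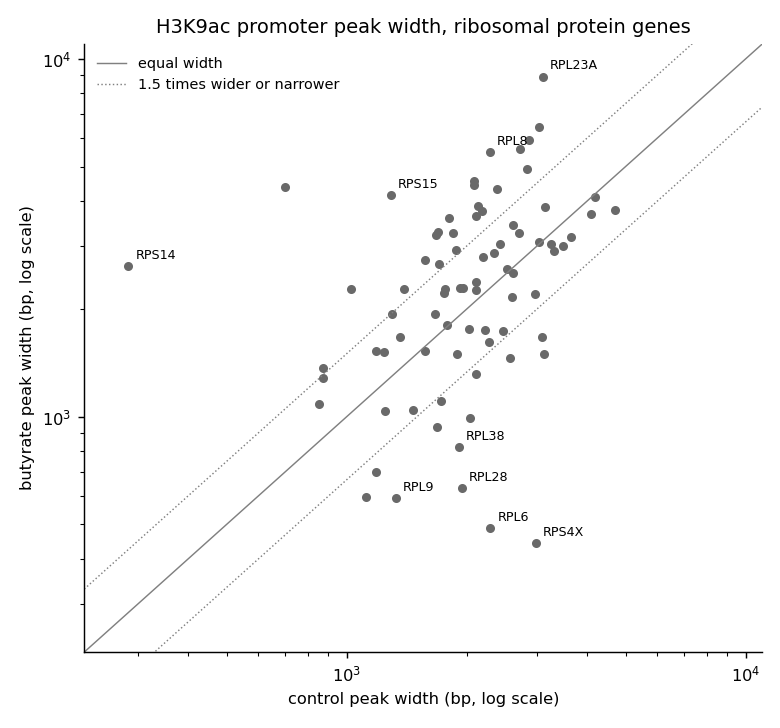
H3K9ac promoter peak width in control (x) and with butyrate (y), in bp on log scales, 1 point per marked ribosomal protein gene (79). The solid line is equal width and the dotted lines 1.5 times wider or narrower, with 25 members on or above the upper line and 14 on or below the lower one. Members described in the text are named.

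The summits of these peaks were lower with butyrate. The number of fragments stacked at the strongest summit was recovered from the deposited fold and p and divided by the implied depth (24.3 M reads for control H3K9ac and 29.4 M for butyrate, M being 1000000). It had a median of 1.36 per M in control (0.657 to 2.30) and 0.988 with butyrate (0.443 to 1.43). The ratio of butyrate to control had a median of 0.742, against 0.897 over all genes marked in both. It was above 1 in 2 of 79 members (2.53%), against 35.0% of genes. The 2 members above 1 were named after their values were seen. RPL41 had a ratio of 1.20 (counting interval 0.632 to 2.32, from 18 and 26 fragments), and its peaks in the 2 conditions were not the same peak. RPLP2, an acidic protein of the ribosomal stalk, had a ratio of 1.07 (0.653 to 1.77, from 31 and 40 fragments).

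Single genes were measured with little depth. Summits held 16 to 56 fragments in control (median 33) and 13 to 42 with butyrate (median 29). The exact 95% counting interval of the ratio lay wholly below 1 in 10 of 79 members and wholly above 1 in none. These intervals were not adjusted for their number. They were not computed for other genes, so no share over all genes stands beside the count. The median ratio over all genes marked in both conditions was itself below 1. Of the 10, RPL10, RPL37, RPS23, RPS27 and RPS7 had upper limits above that median (0.925 to 0.996). RPL39 was among the 10. It had the highest control −log10 q of any member (30.1) and the highest control fold, 11.96. Its summit held 41 fragments in control and 23 with butyrate, a ratio of 0.465 (0.267 to 0.794), while its peak widened from 2718 to 5586 bp. RPL37 had the tallest control summit, 2.30 per M, and a ratio of 0.607 (0.396 to 0.925). RPL39 and RPL37 are named for extreme control values, and the control summit is the divisor of the ratio. Their intervals do not allow for that choice, so no loss of height is read from either gene. The members lay high among marked genes in control (1.36 against 1.11 per M in the median). Among genes with control summits between the members' quartiles, the median ratio was 0.740 for 45 members and 0.829 for 3437 other genes, and 1 of 45 members (2.22%) against 16.9% of those genes had a ratio above 1. Whether the share of fragments that fell in peaks elsewhere changed with the 79356 butyrate peaks, against 22215 in control, and so moved these heights was not tested.

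**Figure D4:**
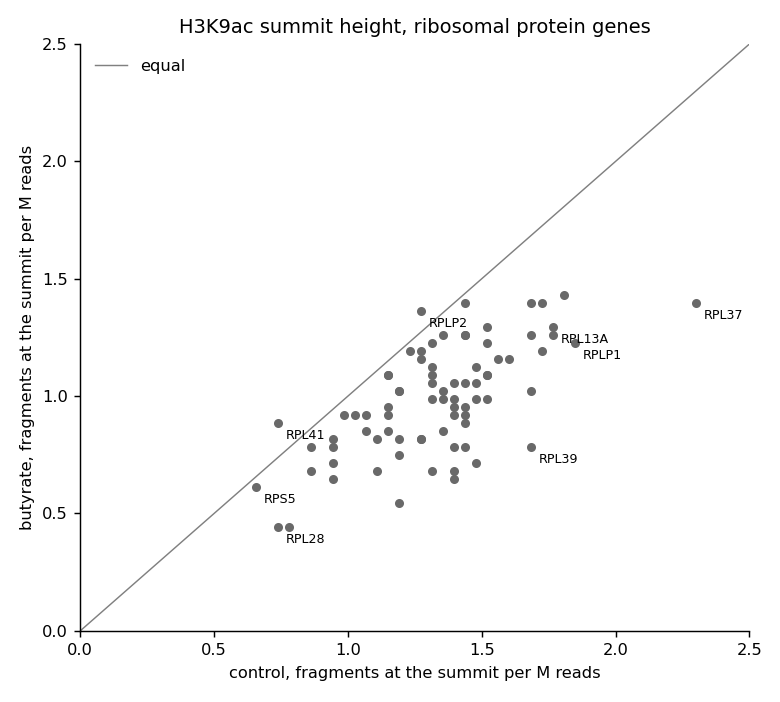
Fragments at the strongest H3K9ac summit per M reads in control (x) and with butyrate (y), 1 point per marked ribosomal protein gene (79). The line marks equal height, and 77 of the 79 points lie below it, RPL41 and RPLP2 above.

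H4K16ac peaks lay near the starts of many ribosomal protein genes in control and of almost none with butyrate. The peak names in both lists carry the letters k12, so H4K16ac here means the libraries so labelled. In control, 46 of 81 members (56.8%, 45.3 to 67.8) were marked, against 19.4% of all genes. Among genes with a control H3K9ac promoter peak the shares were 46 of 79 (58.2%) and 31.6%. With butyrate, 2 of 81 members (2.47%, 0.300 to 8.64) were marked, against 4.87% of genes. Of the 46 members marked in control, 45 (97.8%) were not marked with butyrate, against 88.4% of genes marked in control. The large subunit had 30 of 49 members marked in control and the small subunit 16 of 32.

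These calls rest on weak peaks. Control peaks at members held 6 to 22 fragments at the summit (median 10), and their −log10 q ran from 0.519 to 2.67 with a median of 1.47. In 29 of 81 members (35.8%) the nearest peak passed a q of 0.05, against 9.66% of genes. When only peaks with a q of 0.05 or less were kept, 34 members were marked, against 10.8% of genes. Of the 29 with such a nearest peak, 28 were not marked with butyrate. The share over all genes was not computed at this limit, and at any q it was 88.4%. Both lists were limited at the same p, and the control list has 73586 peaks and the butyrate list 33752. When the control list was cut to its 33752 strongest peaks, 34 of 81 members were marked, against 11.9% of genes.

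The 5 members with the strongest control H4K16ac peak were RPS3A, RPL37A, RPS25, RPL37 and RPL13A. RPS3A had a −log10 q of 2.67 and a peak of 363 bp centred at −417 bp (chr4:151099030-151099392). RPL37A had 2.66 and a peak of 349 bp centred at 283 bp (chr2:216498953-216499301). RPS25 had 2.56 at 388 bp, RPL37 2.54 at 499 bp, and RPL13A, whose protein is also known as an inhibitor of inflammatory translation, 2.43 at −1046.5 bp. The nearest butyrate H4K16ac peak lay 1456 bp from the start of RPS3A, 7502 bp from RPL13A, 8637 bp from RPS25, 10649 bp from RPL37A and 31689 bp from RPL37.

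RPL29, which encodes a heparin-binding ribosomal protein, was marked in both conditions, but not by the same peak. At RPL29 the control peak was 736 bp wide at 904.5 bp (−log10 q 1.99). The butyrate peak was 603 bp wide at −1298 bp (0.384) and shared no base with it. It lay 997 bp from the start, close to the 1 kb limit, and no butyrate peak at a member passed a q of 0.05, which 0.0405% of all genes had. With a 500 bp limit no member was marked with butyrate, against 2.21% of genes, and 39 of 81 were in control, against 12.9%. In control, the members nearest the limit were RPL39L (839 bp) and RPLP2 (838 bp) inside it, and RPL9 lay outside at 1187 bp. RPL23A and RPS23 were marked from the authors' start alone.

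The control H4K16ac peaks flanked the start and left it bare, as such peaks did in most marked genes. Of the 44 members marked from the RefSeq start, 0 had the start under the peak, against 5.49% of all such genes. In 24 of 44 (54.5%) the peak lay downstream, with a median middle of 399 bp (280.5 to 1046), and in 20 it lay upstream, with a median of −661.5 bp (−1396 to −417). Over all genes 43.1% lay downstream. No member was covered at 200 bp upstream, 100 bp upstream or the start. Over all genes with a strand the shares there were 1.7%, 0.951% and 0.951%. The share of members covered was 30.9% at 600 bp upstream and 25.9% at 400 bp downstream, against 5.91% and 4.09% of genes. Farther out, the members' coverage differed by side. Downstream it fell to 6.17% at 1000 bp, well before the end of the H3K9ac peak, and to 1.235% at 2000 bp. The shares of genes were 2.95% and 2.47%. Upstream it was 17.3% at 1000 bp, 18.5% at 2000 bp and 16.05% at 3000 bp, against 5.77%, 4.70% and 4.08% of genes.

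Of the 24 downstream peaks, 23 lay wholly inside the control H3K9ac peak nearest the start of the same gene. The exception was RPL39L, named after its value was seen. Of the 20 upstream peaks, 3 lay inside it, at RPS28, RPL4 and RPLP2 (the nearest H3K9ac peak was itself mostly downstream). Against any control H3K9ac peak, 5 of the 20 upstream peaks (25%) lay inside and 11 shared a base, and 23 of the 24 downstream peaks (95.8%) lay inside. Over all genes the shares inside any H3K9ac peak were 25.8% of upstream and 60.6% of downstream peaks. The peaks were narrow, with a median of 373.5 bp (252 to 2301), against 394 bp over all genes and 2091 bp for the members' H3K9ac. Members with a control H4K16ac peak had a median control H3K9ac width of 2250 bp, against 1888 bp in the 33 marked members without one. Over all genes the medians were 1360 and 1097 bp. The TOP motif was in 43.2% of 37 members with control H4K16ac and 40.7% of 27 without.

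**Figure D5:**
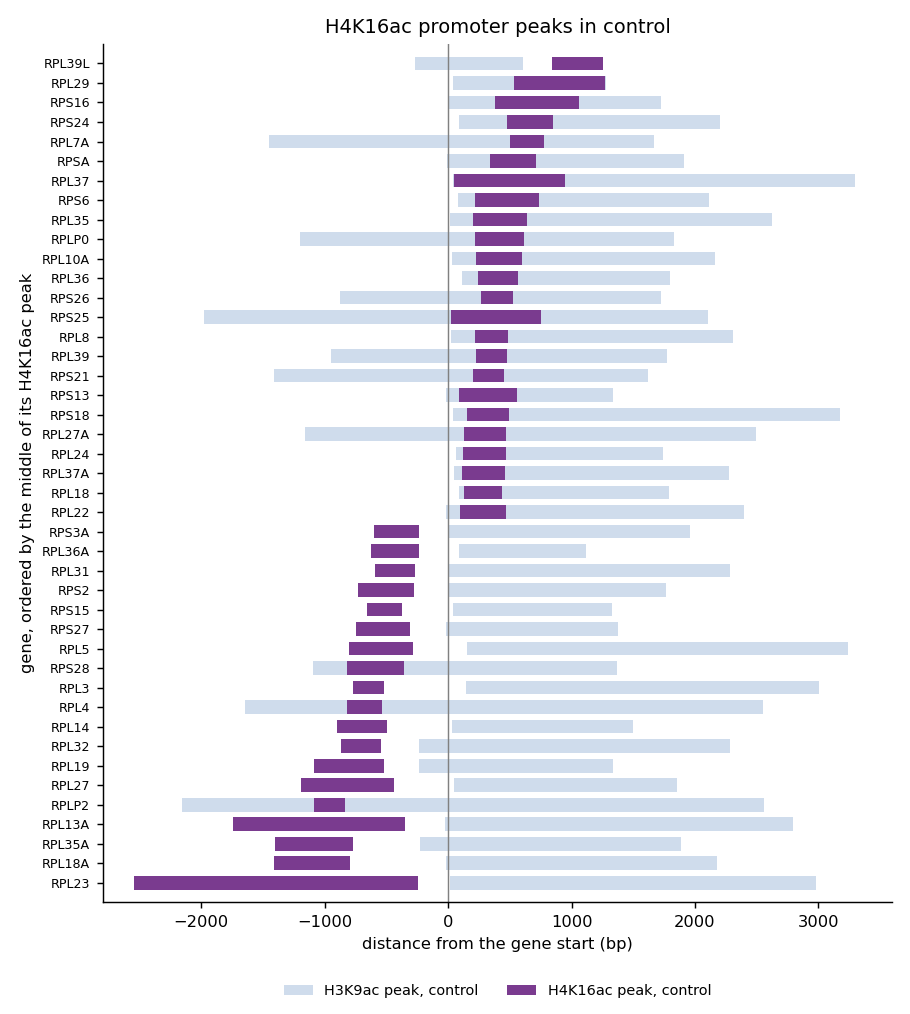
Control H4K16ac peaks (purple) of 43 of the 44 ribosomal protein genes marked from the RefSeq start, in bp from the gene start, over the control H3K9ac peak of the same gene (pale blue). Genes are ordered by the middle of the H4K16ac peak, with 24 downstream and 19 upstream of the start drawn.

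Several well-studied members show the range. RPLP0, the base of the ribosomal stalk and a common reference gene, had H3K9ac peaks of 3031 and 3084 bp in control and butyrate and lost its H4K16ac peak. RPL11, which with RPL5 binds MDM2 when ribosome assembly fails, had H3K9ac peaks of 2111 and 1317 bp and no H4K16ac peak. RPL5 had 3095 and 1671 bp, with H4K16ac in control. RPS6, the target of S6 kinases, had 2031 and 1761 bp, with H4K16ac in control. RPS19, the most often mutated gene in Diamond-Blackfan anaemia, had 2385 and 4340 bp and no H4K16ac peak. RPSA, also known as a laminin receptor, had 1921 and 2296 bp, with H4K16ac in control. RPL22 had 2416 and 3030 bp, and RPL3, which lies near the peptidyl transferase centre, 2860 and 5925 bp, both with H4K16ac in control. RPL10 had 1877 and 2923 bp, RPS27 1392 and 2281 bp, and RPS27A, which is made fused to ubiquitin, 2709 and 3265 bp. Of these 11, none was marked by H4K16ac with butyrate.

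Other genes of ribosome production showed the same presence of H3K9ac. The 7 further ribosomal proteins whose names fall outside the rule were all marked in both conditions, and 5 had H4K16ac in control. With butyrate, 1 of the 7 had an H4K16ac peak. All 15 translation genes with TOP messages were marked by H3K9ac in both conditions, 10 had H4K16ac in control and 1, NPM1, with butyrate. All 20 ribosome assembly genes were marked, 10 with H4K16ac in control and 1, UTP4, with butyrate. All 15 genes of the RNA polymerase I machinery were marked, 7 with H4K16ac in control and 1, TTF1, with butyrate. Of 77 mitochondrial ribosomal protein genes, 75 were marked by H3K9ac in control and 76 with butyrate. MRPL23 was unmarked in both, and MRPS33 gained a peak of 622 bp. H4K16ac marked 38 of the 77 in control and 7 with butyrate. Over all genes H3K9ac marked 55.1% in control and 64.1% with butyrate, and H4K16ac 19.4% and 4.87%. High H3K9ac presence was thus found in each of these lists, and no difference between them and the cytosolic members was tested. At least 1.5 times wider H3K9ac with butyrate was found in 2 of 7, 3 of 15, 7 of 20, 5 of 15 and 17 of 75 genes of these lists in turn. The share was 31.6% in the members and 41.8% over all genes. Peaks at least 1.5 times narrower made up 14.3%, 20%, 10%, 6.67% and 17.3% of the lists, 17.7% of the members and 9.55% of all genes. Summits per M were higher with butyrate in 14.3%, 13.3%, 20%, 33.3% and 14.7%, against 2.53% of the members and 35% of all genes.

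Ribosomal protein genes also host small nucleolar RNAs, which guide the modification of ribosomal RNA from within introns. RefSeq places 60 of them in 29 members. H3K9ac peaks covered 32 of the 60 in control and 41 with butyrate, and H4K16ac peaks covered 0 in either. Small nucleolar RNAs in other genes were not counted. Host members had a median control H3K9ac width of 2199 bp, against 1970 bp in the other 50. Pseudogenes of these genes were also counted. Intronless copies hold no promoter or intron of the member, so these counts cannot show whether reads at the starts were placed on the wrong copy. A peak overlapped 12 of 1962 ribosomal protein pseudogenes (0.612%) in control H3K9ac and 44 (2.24%) with butyrate, and 81 (4.13%) and 40 (2.04%) in H4K16ac. How reads that match several copies were treated is not given in the sources used here. The IgG lists held 6 control and 2 butyrate peaks, and 0 lay within 1 kb of a member's start.

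Cell type was checked on marker promoters. Among 8 granulosa markers, FOXL2 (control width 1985 bp) and INHA (232 bp) had H3K9ac in both conditions. AMH, FSHR, CYP19A1, NR5A1, WT1 and GATA4 had none in either. Control H3K9ac marked 0 of 5 blood and immune, 0 of 4 epithelial and 0 of 4 endothelial markers. With butyrate it marked 1, 1 and 2 of them. The part of these marker differences in the ribosomal protein results was not tested.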

How the data were processed

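ChIP-seq peak lists of 6 of 8 libraries were analysed, and the 2 input libraries were not used here. Per the submitters' processing notes, the processing used CASAVA 1.7 as well as MACS2 2.1.0, and hg19 is the build named. Positions are read as GRCh38, because the authors' gene starts lay a median of 43.0 bp from RefSeq GRCh38 starts over 13600 genes. Fold is the deposited ratio of summit pileup to local background, and p and q are the deposited −log10 values. The deposited score was 10 times −log10 q for H3K9ac and 10 times −log10 p for H4K16ac. The largest q of the deposited H3K9ac lists was 0.0500 and 0.0499. The largest p-value of the deposited H4K16ac lists was 0.00500 in both, and their largest q was 0.304 and 0.621.

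Rows sharing bases were merged on chromosomes 1 to 22 and X. Starts came from RefSeq, then from the authors' columns. A further 216 genes had no usable strand and were left out, and 932 without strand and without a peak near either end count as unmarked. Where several peaks lay within 1 kb, the nearest was used. Pileup was recovered by inverting the p of each summit, and depth (24.3, 29.4, 17.4 and 23.9 M reads, M being 1000000, for control and butyrate H3K9ac and control and butyrate H4K16ac) assumes a genome of 2.7 Gb. Exact Clopper-Pearson 95% intervals cover counting only. With 1 library per group no test was made. Python 3.11.15, pandas 2.3.3 and scipy 1.17.1 were used, and peak matching was tested on simulated data. Members and lists were chosen with earlier results of these data known. Named genes are members without H3K9ac or with butyrate H4K16ac, the strongest control H4K16ac peaks, the extremes of width, width ratio and position, a fixed set of well-known members, and genes that differ from the rest of their list. The printed promoters and the strongest H3K9ac peaks were chosen after values were seen. A few genes that this rule takes are not reported here.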

Additional observations from a re-analysis of the deposited data

How the results depend on the processing

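The count of members with control or butyrate H3K9ac stayed between 73 and 79 under every alternative tried, and control H4K16ac between 34 and 52. The share over all genes moved with the settings. For H3K9ac it ran from 45.1% to 56.1% in control and from 53.8% to 66.3% with butyrate. For control H4K16ac it ran from 10.8% (q of 0.05 or less, 34 members) to 29.7% (2.5 kb window, 52 members). The butyrate H4K16ac count of 2 was 0 with a 500 bp window, with a q of 0.05 or less and with the authors' starts alone, and 15 with a 2.5 kb window, where 15.3% of all genes were marked. The 45 members that lost H4K16ac were 28 among those whose nearest control peak had a q of 0.05 or less. That is a smaller base, and its share over all genes was not computed. The median H3K9ac width ratio of 1.20 was 1.11 over bases within 2 kb, 1.37 with peaks joined within 500 bp and 1.20 with a −log10 q of at least 5. Over bases within 2 kb, 7 members were at least 1.5 times wider (8.86%, against 37.6% of genes) and 3 narrower (against 1.92% of genes). But that measure ends at 4001 bp, members began at a median of 2360 bp, and 26 of 79 were already too covered in control to reach 1.5 times. With joined peaks 3 were narrower, against 4.51% of genes. The widest peak within 1 kb in place of the nearest was an alternative added after seeing the data. With it, 26 of 79 (32.9%) were wider and 10 of 79 narrower, against 42.7% and 6.26% of genes. In the 4 measures with no such ceiling the members' share of wider peaks was below that of all genes. None of these measures was matched for control width, which was larger in the members. The ratio turned to wider at RPL38 (1.10) over bases within 2 kb and at RPS4X (1.05), RPL28 (1.33) and RPL9 (1.20) with joined peaks, and RPL8 was 0.994 over bases within 2 kb, where control already covered 3803 of 4001 bp. The H3K9ac middle of 830.5 bp in control was 357 bp at the strongest summit and 651 bp from the authors' start, and 873 bp with butyrate was 268 and 773 bp. Joining within 500 bp gave control H4K16ac a median width of 439 bp and turned its median position from 282.5 to −429.5 bp, since peaks lie on both sides of the start. The median summit ratio of 0.742 was 0.686 when also scaled by fragment length and 0.740 within the members' quartiles of control height, both added after seeing the data. No paired analysis was possible because each group has 1 library and no result comes from a test. The cause of the changes was not tested. Control H4K16ac summits at members held a median of 10 fragments. The count of upstream H4K16ac peaks inside H3K9ac was 3 against the nearest peak and 5 against any, the second added after seeing the data.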
